A study of Mus musculus with 46 samples.

Results

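The oxidative phosphorylation genes were taken by name from the count table of 22800 gene symbols and numbered 97. Of these, 13 are encoded in the mitochondrial genome (the mt-Nd, mt-Co, mt-Atp and mt-Cytb genes) and 84 in the nucleus (the Nduf, Sdh, Uqcr, Cox and Atp5 families, without names marked as pseudogenes). By name, 37 nuclear members belong to complex I, 4 to complex II, 8 to complex III, 18 to complex IV and 17 to complex V. The names take in 4 genes that encode no standard subunit (Atp5s, Atp5sl, Cox7a2l and Ndufa4l2). Ndufa4 carries a complex I name but has since been assigned to complex IV. Each sample was the cytosol of 1 neuron, drawn into a patch pipette, from a mouse aged postnatal day 21 to 30. The labels class every cell as an OLM (oriens-lacunosum moleculare) interneuron, a hippocampal cell that targets distal pyramidal dendrites, and as having passed quality control. The cells came from a Htr3a Cre driver line (23 cells) or a Sst Cre driver line (23 cells), in which Cre recombinase follows the gene of a serotonin receptor subunit or of somatostatin. Every cell thus came from a Cre line, and no cell without Cre was compared. The labels name no animal, so each line counts as 1 sample. The lines are therefore set side by side without a test, and each SD is the spread between cells, biological and technical together.

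Oxidative phosphorylation moves electrons from NADH and succinate to oxygen through complexes I to IV of the inner mitochondrial membrane, and the proton gradient that results drives the ATP synthase, complex V. Complexes I, III, IV and V each combine subunits from both genomes, while complex II is wholly nuclear. The mitochondrial genes are transcribed inside the organelle as long precursors that are cut into single messengers. Fast-spiking and rhythmically active interneurons are known for a high demand for this pathway.

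The libraries held 3391829 to 26136222 assigned reads in Htr3a-line cells (median 15336981) and 5639490 to 31386369 in Sst-line cells (median 16726879). Levels are given as CPM, a gene's reads per 1000000 assigned reads of the cell. Gad1 and Gad2, which make GABA, were read in 46 of 46 cells, the GABA transporter Slc32a1 in 44, and Slc17a7, which marks pyramidal cells, in 2. In the Htr3a line, replicate 4 had only 4 Gad1 reads and replicate 20 only 24, and replicate 4 held 13314 CPM of the 8 oligodendrocyte markers. Htr3a line replicate 10 also stood apart, with 12693 genes read and 11652 CPM of the 6 endothelial and blood markers, whose median over the 46 cells was 0. Results that turn on these cells are given without them as well.

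In every cell the nuclear members together held more reads than the mitochondrial ones. The 84 nuclear members summed to 15093 CPM in the lowest Htr3a-line cell, 25450 in the median cell and 89161 in the highest. In Sst-line cells the same sum was 17303, 22308 and 110169 CPM. The 13 mitochondrial members summed to 1608, 3035 and 23549 CPM in the Htr3a line and to 1029, 2730 and 9709 CPM in the Sst line. The nuclear sum exceeded the mitochondrial sum in 46 of 46 cells, by 1.88 times (Sst line replicate 5) to 40.1 times (Sst line replicate 23). The line medians of this ratio lay close together, at 8.92 in the Htr3a line and 9.24 in the Sst line. On the log2 scale the mitochondrial to nuclear ratio averaged -3.14 ± 0.741 (SD, 23 cells) and -3.11 ± 0.909 (SD, 23 cells), and the ranges of the lines overlapped. These ratios compare read totals of 2 gene groups. They do not compare levels per length, and some mitochondrial genes have nuclear copies, as described next.

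**Figure D1:**
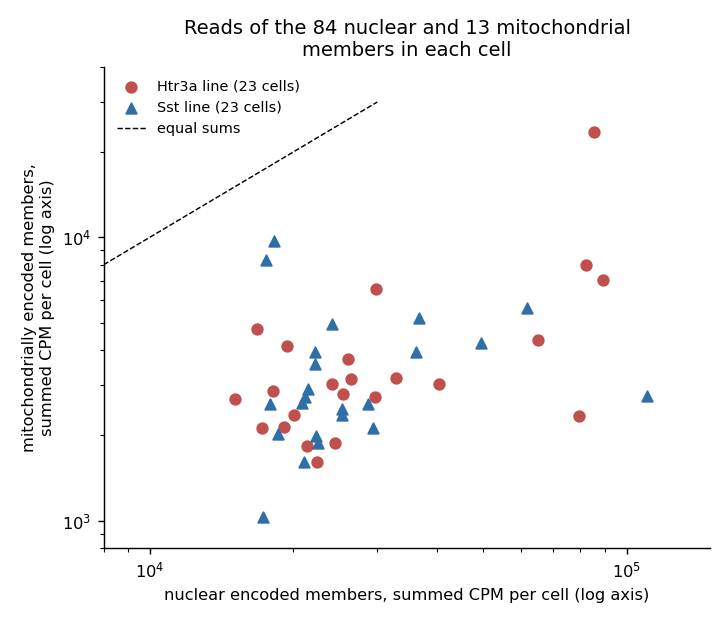
Each point is 1 cell, by its summed CPM of the 84 nuclear members (x, log axis) and of the 13 mitochondrial members (y, log axis), with circles for the Htr3a line and triangles for the Sst line. All 46 cells lie below the dashed line of equal sums, and the lines overlap on both axes.

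The mitochondrial messengers differed in how much of their sequence the nuclear genome also holds. Of the 31-base words of mt-Co2, mt-Atp6, mt-Co3, mt-Nd3 and mt-Nd4l, 98.1% to 100% also occur in transcripts of other genes annotated in GENCODE M21. For mt-Co1 and mt-Nd4 this share was 63.9% and 62.8%, and for the other 6 it was 0% (mt-Nd1) to 16.8% (mt-Nd5). The partners of the 5 genes, and of the first part of mt-Nd4, are unprocessed pseudogenes that lie side by side on the minus strand of chromosome 1 (GRCm38, 24611535 to 24615565), a nuclear copy of a stretch of the mitochondrial genome. Over their aligned bases the copies of mt-Co2 (681 bases), mt-Atp6 (678), mt-Co3 (783) and mt-Nd4l (294), and that of mt-Nd4 over its first 876 bases, showed 0 substitutions. The copy of mt-Nd3 showed 1 in 345 bases, T3C, counted from 1 at the first base of the gene. A read that lies wholly within identical bases matches both places. The pairs below give the first 60 bases of 2 genes beside the nuclear copy. They run 5′ to 3′ on the coding strand, with the substituted base in capitals.
mt-Nd3: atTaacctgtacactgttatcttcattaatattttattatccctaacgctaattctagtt
Gm28438: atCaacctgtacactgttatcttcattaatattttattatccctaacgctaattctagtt
mt-Co2: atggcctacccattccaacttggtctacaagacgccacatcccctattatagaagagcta
Gm28661: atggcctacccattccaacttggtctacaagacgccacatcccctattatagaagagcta
The reads of these copies were not analysed here, and the sources do not say how the authors treated a read with several places.

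The 5 genes with a near-identical nuclear copy, and mt-Atp8, stood far below mt-Cytb, mt-Nd1 and mt-Co1 per length. Levels per kilobase are CPM divided by the merged exon length. mt-Cytb, the cytochrome b of complex III (mitochondrial genome, 14145 to 15288), had line medians of 742 CPM per kilobase in the Htr3a line and 747 in the Sst line. mt-Nd1, a membrane subunit of complex I (2751 to 3707), had 549.8 and 629, and mt-Co1, the catalytic core of complex IV (5328 to 6872), had 502 and 421. Together these 3 genes held 72.6% of all mitochondrial member reads. mt-Co2, which takes electrons from cytochrome c, had 19.4 and 11.7 CPM per kilobase. mt-Co3 had 30.2 and 15.4, mt-Atp6, the proton channel subunit of ATP synthase, 26.4 and 14.96, mt-Nd3 11.4 and 5.65, and mt-Nd4l 1.33 and 0.756. The 5 genes therefore held 2.51% of the mitochondrial member reads. mt-Atp8 had 36.05 and 16.5 CPM per kilobase. It shares few words with annotated genes (7.47%), but it lies between mt-Co2 and mt-Atp6, and the matching stretch of chromosome 1 holds no annotated gene and was not compared. The part of the nuclear copies in these low levels was not tested.

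**Figure D2:**
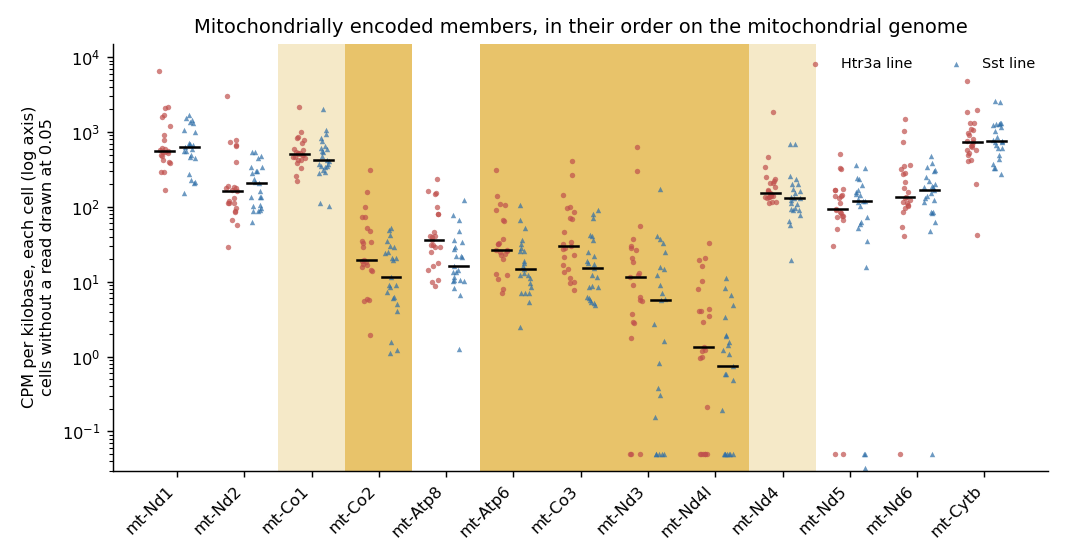
CPM per kilobase (log axis) of each mitochondrially encoded member in each of the 46 cells, in genome order, with bars at the line medians and cells without a read drawn at 0.05. Dark shading marks the 5 genes with over 90% of their 31-base words in other annotated genes and light shading the 2 with 20 to 90%; the dark-shaded genes and mt-Atp8 lie an order below mt-Nd1, mt-Co1 and mt-Cytb.

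Reads of 9 of the 13 mitochondrial members were found in 46 of 46 cells. mt-Nd3 was read in 38 and mt-Nd4l in 33. mt-Nd5, a proton-pumping subunit of complex I, had reads in 21 of the 23 cells on either side (91.3%, 95% Clopper-Pearson interval 72.0 to 98.9). It had no read in Htr3a line replicates 4 and 12 and Sst line replicates 16 and 17 although its line medians were 171 and 218 CPM. mt-Nd6, the only member on the other strand of the mitochondrial genome, lacked a read in Htr3a line replicate 4 and Sst line replicate 16. The intervals cover counting error only, since no molecular identifiers are named and amplified copies may have been counted.

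Nearly all nuclear members were read in nearly all cells. Of the 84, 41 had reads in all 46 cells and 73 in at least 42, and 76 had reads in at least 12 cells and passed the expression minimum, set at 0.5 for the mean of log2(CPM + 1). The other 8 were read in 6 cells or fewer (Cox4i2, Cox6a2, Cox6b2, Cox7a1, Cox7b2, Cox8b, Cox8c and Ndufa4l2). Subunits of complex IV led the levels per kilobase, averaged over the 46 cells. Cox8a, a small structural subunit, stood first at 1193 CPM per kilobase, before Cox6b1 (755), Cox4i1 (699) and Cox6a1 (679). In complex I the highest were Ndufa4 (630.0) and Ndufa1 (571), in complex III Uqcr10 (577) and Uqcr11 (522), in complex V the catalytic subunits Atp5b (474) and Atp5a1 (428), and in complex II Sdhd (255) and Sdhb (254). The order depends on the length used: with the length of the main transcript in place of merged exons, Cox5a came first (1513 CPM per kilobase) and Cox8a was the fourth (1343). Counting error was small for these genes: summed over a line, Cox8a had 877 CPM (exact Poisson 95% interval 874 to 880.0) in the Htr3a line and 572 CPM (569.8 to 575) in the Sst line.

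In 5 complex IV subunits with several isoforms, 1 isoform took nearly all reads, while COX7A and ATP synthase subunit c drew on several genes. Shares here are reads per base of the main transcript, summed over the 46 cells. Cox4i1 held 99.996% of COX4, Cox6a1 99.8% of COX6A, Cox6b1 99.9% of COX6B, Cox7b 99.9% of COX7B and Cox8a 99.9% of COX8, each in the form known from most tissues. The forms known from muscle, lung or testis were sparse. Cox4i2, the lung form, had 28 reads in 1 cell, Cox8b 205 reads in 1 cell, Cox7b2, a testis form, 213 reads in 1 cell, and Cox8c reads in 0 of 46 cells. A count of 0 allows up to 6.52% of cells with a read by the limit of 3 counts, and up to 7.71% by the exact Clopper-Pearson interval. Cox6a2, the heart and skeletal muscle form of COX6A, was read in 3 cells, at 24.9, 19.3 and 3.34 CPM. The single Cox7b2 cell, 1 of the 3 Cox6a2 cells and 1 of the 3 Cox6b2 cells were Htr3a line replicate 10, in which 12693 genes were read. COX7A was shared between Cox7a2 (83.1%) and Cox7a2l (16.6%), a supercomplex assembly factor, with 0.363% from Cox7a1. ATP synthase subunit c, whose mature protein is identical between its 3 genes, came from Atp5g3 (81.7%), Atp5g1 (12.95%) and Atp5g2 (5.37%) on this scale. The shares depend on the length used: with merged exons Atp5g3 held 64.7% and Atp5g1 29.7%, and in reads alone Atp5g1 led with 49.2% (545823 reads) against 47.6% (527811 reads). Of the words of Atp5g2, 40.2% also occur in other genes, so its counts are uncertain. By main transcript, Atp5g3 held 80.1% in the Htr3a line and 83.3% in the Sst line.

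Promoters of nuclear members held the letters of NRF1 and YY1 sites more often than those of other genes above the expression minimum. Letters of GABP sites occurred at a share near that of those genes. All 3 are transcription factors known to act on respiratory genes. RefSeq promoters of build GRCm38.p6, from 250 bases before to 50 after the start, matched 69 of the 84 nuclear members by symbol. A gene was counted when any of its promoters held the letters on either strand. The NRF1 letters GCGCA and GCGC with 1 base of any kind between them occurred in 17 of the 69 (24.6%). The shares were 5.19% of all 27025 genes with a promoter and 12.3% of 8374 other genes above the expression minimum. The GABP letters CCGGAAG occurred in 16 (23.2%), against 9.93% and 20.5%, and the YY1 letters AANATGGCG in 11 (15.9%), against 2.76% and 6.40%. At least 1 of the 3 occurred in 38 (55.1%), against 15.9% and 34.1%, and sites of different motifs may overlap, since CCGGAAG can end where AANATGGCG begins. A match describes the letters and no binding was measured. The 3 promoters below were chosen because each holds 2 of the motifs within 120 bases before the start, and are printed 5′ to 3′ on the strand of the gene with the motifs in capitals: Sdhd at chr9:50603850-50603969 and Cox6a1 at chr5:115348959-115349078 with NRF1 and GABP, and Atp5j at chr16:84834977-84835096 with YY1 and GABP, all on the minus strand.
Sdhd: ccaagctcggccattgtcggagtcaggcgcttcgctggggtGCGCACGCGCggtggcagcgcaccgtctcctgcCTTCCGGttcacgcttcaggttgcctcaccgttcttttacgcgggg
Cox6a1: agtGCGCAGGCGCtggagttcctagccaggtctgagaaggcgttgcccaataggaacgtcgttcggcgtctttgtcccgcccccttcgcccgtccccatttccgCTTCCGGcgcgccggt
Atp5j: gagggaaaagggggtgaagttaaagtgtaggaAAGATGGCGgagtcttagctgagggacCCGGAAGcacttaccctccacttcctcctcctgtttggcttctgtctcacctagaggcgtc

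The nuclear sum varied between cells together with the share of short transcripts in the library as a whole. For each cell, that share was taken over all other genes (no member, no mitochondrial gene and not Sst) as the percentage of reads on genes whose main transcript is under 1000 bases. It was 3.53% in the lowest Htr3a-line cell, 4.75% in the median and 29.6% in the highest (replicate 10), and 3.06%, 5.02% and 22.6% (replicate 23) in the Sst line. The members are short themselves: the median main transcript of the 84 is 823.5 bases, against 3010 over all genes above the expression minimum. Over the 46 cells, the log2 nuclear sum and the log2 short share had a Pearson r of 0.92 and a Spearman rho of 0.68 (r 0.90 without the 2 cells farthest on the share). Within the lines r was 0.93 (Htr3a) and 0.90 (Sst). Cells are not independent replicates, and both measures come from the same library, so these coefficients are a description.

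The same cells stood at the top of both measures. The 8 cells with a short share above 10%, namely Htr3a line replicates 10, 11, 12, 20 and 23 and Sst line replicates 8, 14 and 23, were also the 8 with the highest nuclear sum, from 49501 to 110169 CPM. The next cells on each measure had 9.61% and 40512 CPM. Among the other 38 cells r was 0.57 and rho 0.44, so the relation is looser there. Gad1, the GABA-making enzyme of interneurons, was at 7.08 to 931 CPM in the 8 cells, all below the median of 1066 CPM over the 46. Its r with the nuclear sum was -0.38 over the 46 cells (-0.72 without the 2 cells farthest on Gad1). Among the other 38 cells this r was 0.16 (rho -0.006), and -0.30 without the 2 of them farthest on Gad1. The inverse relation was thus weaker outside the 8 cells, and its sign there turned on 2 cells. The part of what moves with Gad1 in the nuclear sum was not tested. Assigned reads did not run with the nuclear sum (r -0.06, rho 0.16 over 46 cells), nor did the number of genes read (r 0.10).

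The relation followed transcript length member by member. The 51 nuclear members under 1000 bases summed to 5075 CPM in the lowest cell and 79893 in the highest, with an r of 0.94 to the short share. The 19 members of 1500 bases or more summed to 5796 to 16212 CPM, with an r of 0.44 that was 0.08 among the 38 cells. Taken singly, 43 of 43 short members above the minimum had a positive r (median 0.63), against 81.4% of 608 other genes of that length (median 0.24). Of 14 members from 1000 to under 1500 bases, 13 had a positive r (median 0.42), against 57.4% of 863 other genes (median 0.04). Of 19 members of 1500 bases or more, 8 had a positive r (median -0.12), against 32.4% of 7925 others (median -0.08). Across the 76 members, length and r were related by a Pearson coefficient of -0.58, as a description across genes, which are not independent replicates.

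Subunits of the same complex thus differed in sign. Uqcr11, a small subunit of complex III, had an r of 0.91 with the short share and Uqcr10 0.87, while the large core protein of that complex, Uqcrc1, had -0.53. In ATP synthase, Atp5g3 had 0.86 and Atp5k 0.86, against -0.55 for Atp5a1 and -0.46 for Atp5b, which form its catalytic head. In complex II, Sdhb had 0.53 and Sdha, the flavoprotein that oxidises succinate, -0.42. Exceptions by annotated length were Atp5g1 (0.87) and Ndufb2 (0.63), whose main annotated transcripts are 4715 and 4371 bases long, and Uqcrq (0.88). Ribosomal protein genes ran with the members: the summed mitochondrial ribosomal protein genes had an r of 0.94 with the nuclear sum, and the cytosolic ones 0.89. The part of the short share in these values was not tested.

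**Figure D3:**
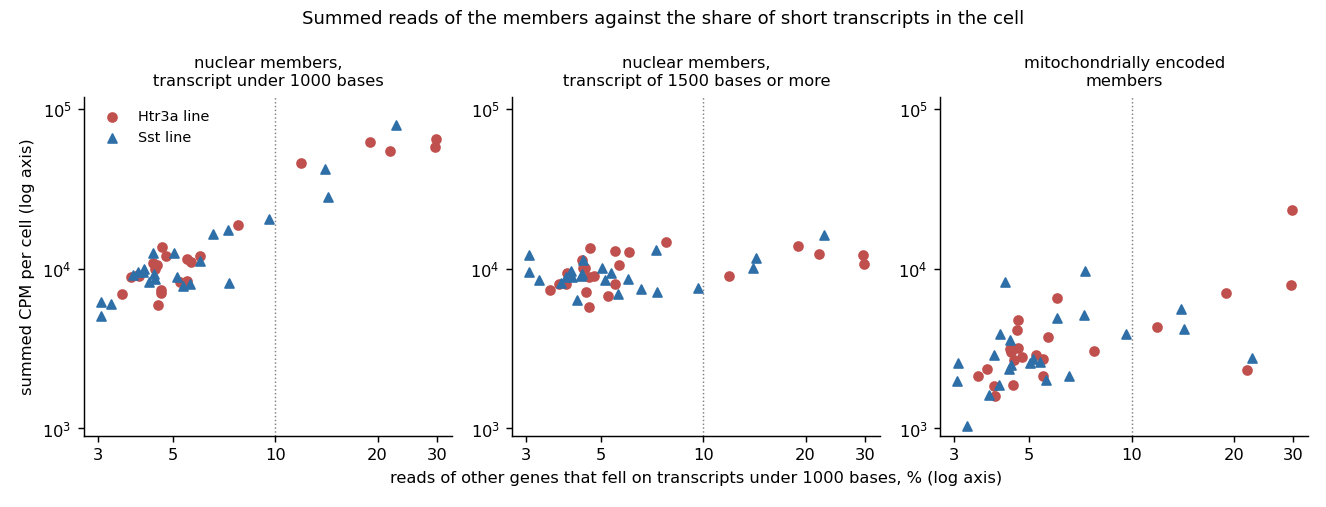
Summed CPM per cell (log axis) of the 51 nuclear members under 1000 bases, the 19 nuclear members of 1500 bases or more and the 13 mitochondrial members, against the percentage of other reads on transcripts under 1000 bases (log axis), with the dotted line at 10%. The short members spread from 5075 to 79893 CPM along the x axis, while the long ones stay between 5796 and 16212 CPM.

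**Figure D4:**
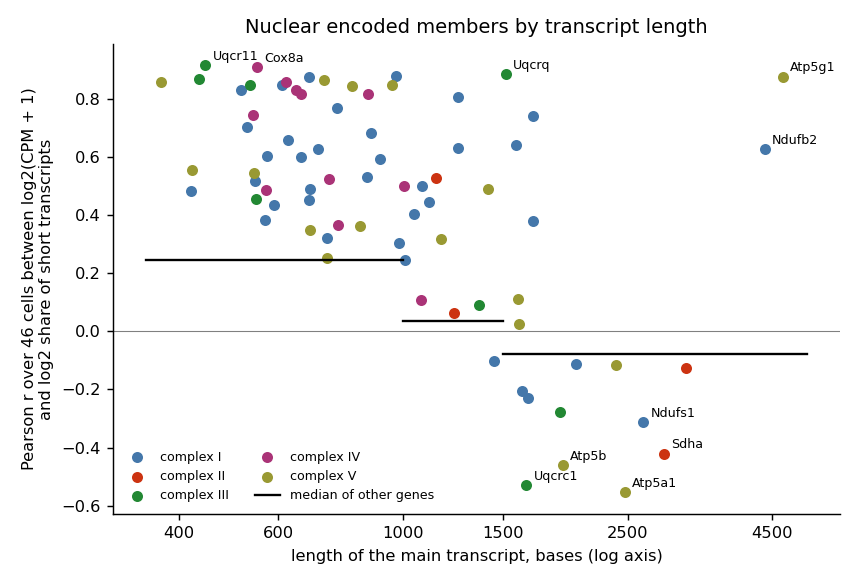
Pearson r over 46 cells between a member's log2(CPM + 1) and the log2 short share (y), against the length of its main transcript in bases (x, log axis), for the 76 nuclear members above the minimum, coloured by complex, with bars at the median of other genes in 3 length classes. Members under 1000 bases all lie above 0 with a median of 0.63, and the long Atp5a1, Uqcrc1 and Sdha lie below 0.

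The mitochondrial and nuclear sums ran together only loosely. Over 46 cells the Pearson r was 0.44 and rho 0.35. It was 0.62 in the Htr3a line (0.39 without the 2 cells farthest on the mitochondrial sum) and 0.17 in the Sst line (0.47 without them). Without the 8 cells above 10% it was 0.13. Over 46 cells it was higher with edgeR TMMwsp factors (0.67) and DESeq2 poscounts factors (0.70). There the same factor of a cell scales both sums, which can by itself raise this r. The mitochondrial sum had an r of 0.58 with the short share, and of 0.39 without the 2 cells farthest on it. The mitochondrial ribosomal RNAs, mt-Rnr1 and mt-Rnr2, had an r of 0.78 with the summed messengers, and the 5 genes with a nuclear copy one of 0.78 with the 6 that share few words. Fewer mitochondria in the pipette and less RNA per mitochondrion cannot be told apart in these data.

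Microglial transcripts moved with the mitochondrial sum in one line. The 9 microglial markers, all of which passed the expression minimum, summed to 0 to 8443 CPM in Htr3a-line cells (median 448) and to 0.0536 to 10876 CPM in Sst-line cells (median 774). Their r with the mitochondrial sum was 0.54 in the Sst line (rho 0.57) and -0.11 in the Htr3a line (rho -0.04), and with the nuclear sum it was -0.06 and -0.12. Sst line replicate 5, which had the highest mitochondrial sum of its line (9709 CPM), held 8627 CPM of microglial markers, and Sst line replicate 4, the second highest (8294 CPM), held 1319. Between the lines, 8 of the 9 markers were higher in Sst-line cells and 1 lower (median 0.41), with C1qa, a complement gene of microglia, at 1.15. Of all genes above the minimum 37.4% were higher, with a median of -0.22. Their part in the mitochondrial values was not tested.

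Between the lines, the mitochondrial members were mostly lower in Sst-line cells, with the lowest group median among the genes with a nuclear copy. Those genes also have few reads, and copy and read level cannot be told apart here. mt-Atp8, with few reads and few words shared with annotated genes, was at -0.87. Since its matching stretch of chromosome 1 was not compared, it cannot serve as a gene without a copy. The line difference is the mean log2(CPM + 1) of Sst-line cells minus that of Htr3a-line cells. Of the 13 members, 11 were lower (84.6%) and 2 higher, with a median of -0.47, against -0.22 over all 11196 genes above the minimum. Of all these genes 62.6% were lower. The 5 genes with a nuclear copy were all lower (median -0.98, or -0.62 with a pseudocount of 10), and the 2 with a partial copy were lower (median -0.38). Of the 6 others, mt-Atp8 among them, 4 were lower (66.7%, median -0.20). That median is close to the one of all genes but below the 0.13 over 1252 other genes at a mean of 6 to 10. Of those 1252 genes 40.8% were lower, and mt-Atp8 does not reach their level. The past-fold rule was a difference of at most -1 or at least 1. It took 2 of 13 mitochondrial members, both at -1 or below, beside 14.9% of all genes at -1 or below and 4.24% at 1 or above. That count was 5 on the deposited normalized values, 3 with TMMwsp factors, 1 with poscounts factors, and 0 with a pseudocount of 10 or without the 8 cells rich in short transcripts.

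mt-Co3 had 6.06 CPM in the lowest Htr3a-line cell, 23.7 in the median and 325 in the highest, and 3.80, 12.1 and 70.3 CPM in the Sst line. Its means were 4.93 ± 1.504 and 3.79 ± 1.24 (SD, 23 cells each), a difference of -1.14, or -0.98 without Htr3a line replicate 10, and the ranges overlapped. mt-Co2 had 1.33, 13.3 and 211 CPM against 0.772, 7.98 and 35.3, a difference of -1.01 that lay between -1.14 and -0.85 as single cells were left out. mt-Atp6 (-0.98), mt-Atp8 (-0.87), mt-Nd3 (-0.83) and mt-Nd4l (-0.47) were lower too, in low counts. mt-Nd4 was at -0.51 (-0.69 to -0.24 over the alternatives). mt-Nd5 was at -0.37, at -0.73 without Htr3a line replicates 4 and 20, and at -0.06 without Sst line replicate 16.

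Of the abundant messengers, mt-Cytb, mt-Nd1, mt-Co1, mt-Nd2 and mt-Nd6 had smaller differences in mean log2 level, and their direction or size depended on the setting. The abundant mt-Nd4 (-0.51) and mt-Nd5 (-0.37), given above, stayed below 0 in every alternative run. mt-Cytb had 47.8, 849 and 5455 CPM in the lowest, median and highest Htr3a-line cell and 319, 855 and 2945 CPM in the Sst line, with a difference of 0.14 that was -0.05 after thinning and -0.02 without Htr3a line replicates 4 and 20. mt-Nd1 had 161, 526 and 6276 CPM against 146, 602 and 1606 (-0.21, or 0.07 without the 8 cells rich in short transcripts), and mt-Co1 342, 776 and 3350 against 158, 651 and 3161 (-0.24). mt-Nd2 was at 0.05 and at -0.05 with TMMwsp factors, and mt-Nd6 at -0.19 and at 0.22 without those 8 cells. By summed CPM, in which the highest cells weigh most, mt-Nd2 was at -0.65, mt-Nd1 at -0.52, mt-Nd6 at -0.50, mt-Co1 at -0.22 and mt-Cytb at -0.21. The summed messengers, which these genes make up for the most part, had a log2 ratio of line medians of -0.15, which turned to 0.01 with TMMwsp and 0.13 with poscounts factors. Each of these 5 differences in mean was smaller than the SD between cells in either line, which was 0.680 at the least (mt-Co1, Htr3a line) and 1.87 at the most (mt-Nd6, Htr3a line).

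The nuclear members as a group lay between all genes and genes at a similar level. Of the 76 above the minimum, 31 had a higher and 45 a lower mean in the Sst line (59.2% lower, median -0.12). The share with a lower mean was 62.6% over all genes and 40.8% over other genes at a mean of 6 to 10. The median was -0.22 over all genes and 0.13 over 1252 other genes at a similar mean of 6 to 10. At -1 or below were 4 members (5.26%), beside 14.9% of all genes and 3.91% of genes at that level, and at 1 or above 0 members, beside 4.24% and 5.75%. On the deposited normalized values 6 were at -1 or below and 2 at 1 or above (Ndufv1 at 1.39 and Ndufs4 at 1.13), and without the 8 cells rich in short transcripts 2 were at -1 or below. By complex the medians were -0.16 (complex I, 16 higher and 20 lower), -0.19 (complex II, 4 of 4 lower), 0.09 (complex III, 4 and 4), -0.18 (complex IV, 5 and 6) and -0.12 (complex V, 6 and 11). The nuclear median is small against what single cells do to it. It was -0.03 without Htr3a line replicate 11, -0.23 without Sst line replicate 23, and -0.26 without Htr3a line replicates 4 and 20, when 16 were higher and 60 lower and the median of all genes was -0.36. Without the 8 cells rich in short transcripts it was -0.03, with 35 higher and 41 lower.

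**Figure D5:**
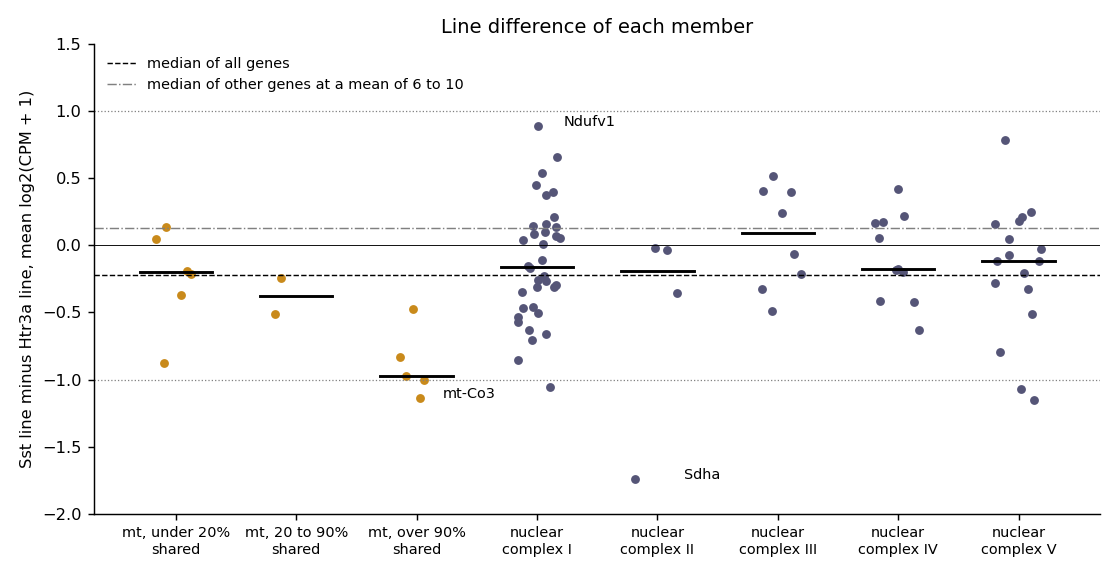
Sst line minus Htr3a line in mean log2(CPM + 1) for each member (points), for mitochondrial (mt) members by their share of words in other genes and nuclear members above the minimum by complex, with bars at the group medians and lines at the medians of all genes (-0.22) and of other genes at a mean of 6 to 10 (0.13). The 5 mitochondrial members with over 90% shared words lie at or below -0.47, and Sdha at -1.74 is the lowest member.

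Sdha was the lowest of the members. Reads were present in 22 of the 23 cells of the Htr3a line (95.7%, 78.1 to 99.9) and in 20 of the 23 of the Sst line (87.0%, 66.4 to 97.2). The lowest, median and highest cells had 0, 686 and 1463 CPM in the Htr3a line and 0, 263 and 936 CPM in the Sst line. The means were 8.55 ± 2.29 and 6.81 ± 3.28 (SD, 23 cells each), a difference of -1.74, below the SD of the Sst line. It ranged from -2.13 to -1.43 as single cells were left out, was -2.54 without the 8 cells rich in short transcripts, and was -0.79 as a log2 ratio of summed CPM (612 against 354). Its partner Sdhb, the iron-sulfur subunit, was at -0.03 (0.07 at the highest alternative), and the membrane anchors Sdhc and Sdhd at -0.02 and -0.36 (for Sdhd 0.18 at the highest alternative). The cells without an Sdha read were Htr3a line replicate 20 and Sst line replicates 5, 17 and 21, and Sst line replicate 20 had 2.44 CPM. Among the 74 nuclear members read in at least 36 cells, these 4 cells lacked 14, 4, 5 and 6 in all.

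Atp5s (-1.15), Atp5g2 (-1.07) and Ndufa7 (-1.06) were the other members at -1 or below, and Ndufb2 followed (-0.86). Atp5s, a factor B-like protein of ATP synthase, had reads in 20 cells of the Htr3a line and 14 of the Sst line. Atp5g2 was read in 23 and 18 cells, with nearly equal medians of 30.5 and 30.9 CPM. Ndufa7, an accessory subunit of complex I, was read in 23 and 22 cells, with medians of 150.3 and 97.1 CPM. As log2 ratios of summed CPM these 3 were at -0.68, -0.18 and -0.51, and with single cells left out each came above -1 (-0.98, -0.87 and -0.76).

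The 5 highest differences were smaller without Htr3a line replicates 4 and 20, of which at least 1 had few or no reads of each gene. Leaving out such cells from the lower line narrows a difference by construction. Ndufv1, the NADH-binding subunit of complex I, had 0, 298 and 952 CPM in the lowest, median and highest Htr3a-line cell and 55.7, 335 and 969 CPM in the Sst line. Its difference of 0.89 was 0.57 without Htr3a line replicates 4 and 20 and 0.09 by summed CPM. Atp5f1, in the peripheral stalk of ATP synthase, was at 0.78, and at 0.06 without those 2 cells, in which it had 0.111 and 2.06 CPM, and at -0.03 by summed CPM. Ndufa9 was at 0.66 (0.33 without them), Ndufs4, an accessory subunit mutated in Leigh syndrome, at 0.54 (0.29, and -0.08 by summed CPM), and Uqcrfs1, the Rieske iron-sulfur protein of complex III, at 0.52 (0.12). The medians of all 5 over cells lay close together in the lines.

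Among the most abundant nuclear members, Cox8a, Cox6b1 and Uqcr11 were lower in the Sst line under every alternative run, and most others changed sign. Cox8a had 239.9, 483 and 3123 CPM in the lowest, median and highest Htr3a-line cell and 186, 356 and 3594 CPM in the Sst line. Its difference of -0.63 (9.28 ± 1.15 against 8.65 ± 1.10, SD, 23 cells each) was below the SD. Over the alternatives it ranged from -0.73 to -0.43. Cox6b1 was at -0.42 (-0.52 to -0.28) and Uqcr11 at -0.49 (-0.80 to -0.17). Atp5b had 48.6, 1949 and 3959 CPM against 803, 2183 and 3362 CPM, a difference of 0.21 that was -0.05 without Htr3a line replicates 4 and 20 and -0.12 without the 8 cells rich in short transcripts. Atp5a1 was at 0.25 and kept its sign. Ndufa4 (-0.17), Ndufa1 (0.10) and Uqcr10 (-0.06) each changed sign under at least 1 alternative. So did members named as isoforms and not by level, namely Cox4i1 (0.17), Cox6a1 (0.16), Cox7a2 (-0.19), Cox7a2l (0.42), Cox7b (0.22), Atp5g1 (-0.32) and Atp5g3 (-0.12).

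Missing reads were concentrated in a few cells. Among the same 74 members, Htr3a line replicate 20 lacked reads of 14 and replicate 4 of 9, followed by Sst line replicates 21 (6) and 17 (5) and by Htr3a line replicate 6 and Sst line replicate 5 (4 each). Htr3a line replicate 20 lacked Ndufv1, Ndufa9, Ndufs4, Sdha and 4 ATP synthase genes (Atp5e, Atp5h, Atp5l and Atp5o), and yet its nuclear sum was among the 8 highest (65270 CPM). It had the fewest assigned reads (3391829).

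Protein-coding lists around the pathway had median line differences from -0.18 to 0.20, beside -0.22 for all genes. Of all genes 37.4% were higher and 62.6% lower, beside which the counts below stand. Of 41 assembly factors, 19 had a higher and 22 a lower mean in the Sst line (median -0.03), with 8 at -1 or below (19.5%, beside 14.9% of all genes) and 2 at 1 or above (4.88%, beside 4.24%). Cox11, which delivers copper to complex IV, was at -1.78 (reads in 18 Htr3a-line and 14 Sst-line cells). Ndufaf2 was at -1.74 (19 and 13 cells). Of 32 genes of mitochondrial DNA expression above the minimum, 10 were higher and 22 lower (median -0.17). The initiation factor Mtif2 was at -1.98 (reads in 16 Htr3a-line and 11 Sst-line cells). The messenger-stabilising Lrpprc was at 1.65 (18 and 21 cells). Of 10 regulators of biogenesis, 5 were higher and 5 lower (median 0.02). Esrrg was at -1.52 (14 and 7 cells) and Nrf1 at -1.27 (11 and 4 cells, both line medians 0 CPM). Of 17 genes of the citric acid cycle and pyruvate dehydrogenase, 9 were higher and 8 lower (median 0.20), with Pdhx at -1.39 and Dlat at -0.87.

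Of 14 carriers and channels, 9 were higher and 5 lower (median 0.08), with Mcu, the calcium uniporter, at -1.31 and Ucp2 at -0.91. Of 77 mitochondrial ribosomal protein genes, 32 were higher and 45 lower (median -0.15). Mrps22 was at -2.04 (reads in 16 Htr3a-line and 8 Sst-line cells) and Mrps23 at -1.75 (18 and 11 cells). Of 7 further respiratory genes outside the name rule, 3 were higher and 4 lower (median -0.18), with 1700066M21Rik at 0.69 and Cyc1, cytochrome c1 of complex III, at 0.56. Both mitochondrial ribosomal RNAs were lower, mt-Rnr1 with -0.997 and mt-Rnr2 with -0.40, and their median CPM were 55.7 and 383 in the Htr3a line against 49.3 and 341 in the Sst line. For comparison, 84 symbols of cytosolic ribosomal protein genes gave 28 higher and 53 lower among the 81 above the minimum (median -0.16).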

How the data were processed

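RNA of 46 single neurons was sequenced by the authors, who deposited raw read counts per gene by symbol and by Ensembl identifier. Per the submitters' processing notes, the tools were Trimmomatic, STAR and featureCounts and the build was GRCm38. Their versions, the annotation, the strand setting and the handling of reads with several places are not stated in those notes. A deposited normalized table holds a signal equal to the count times 1 factor per cell (0.479 to 6.96), and the source of these factors is unstated. Values come from the table by symbol. All 97 members had the same counts in both tables and an entry in GENCODE M21 (Atp5sl through a RefSeq synonym). Of 1035 library pairs 0 were identical (r across genes 0.310 to 0.810).

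Members and lists were chosen with earlier results of these data known. Counts were scaled to CPM, and line differences are means of log2(CPM + 1), listed for genes with a mean of at least 0.5. The main transcript is the best-ranked protein-coding one, the longest among equals. Named genes are all mitochondrial members, the 2 nuclear members of each complex with the highest CPM per kilobase, the 5 lowest and 5 highest differences among nuclear members read in at least 12 cells, all listed isoforms, members read in fewer cells, and the 2 largest differences of each pathway list. Uqcrc1, Atp5k, Uqcrq, Cox5a, Sdhc, Atp5j and the genes without reads in single cells were chosen after their values were seen. Shares carry exact Clopper-Pearson and summed CPM exact Poisson 95% intervals, which cover counting error only. The script that computes the differences was checked on simulated counts with known changes. The alternatives were edgeR 4.0.16 (TMMwsp) and DESeq2 1.42.0 (poscounts) factors, used for scaling alone, the deposited normalized values, reads outside the mitochondrial genome, the Ensembl table, thinning to 5000000 reads (which drops Htr3a line replicate 20), a pseudocount of 10, summed CPM, other member sets and cells left out. The computations used Python 3.11.15, numpy 2.4.6, pandas 2.3.3 and R 4.3.3.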

Additional observations from a re-analysis of the deposited data

How the results depend on the processing

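The median line difference of the mitochondrial members stayed below 0 in the alternatives run, from -0.69 (summed CPM) to -0.23 (without members sharing at least 90% of their words, an alternative chosen after seeing the data), and from -0.55 to -0.36 with single cells left out. The nuclear median also stayed below 0, from -0.32 (summed CPM) to -0.03 (without the 8 cells rich in short transcripts, also chosen after seeing the data), and from -0.23 to -0.03 with single cells left out. It lay above the median of all genes in CPM, with the 3 other scalings, after thinning and in both sets of cells left out together, and below it with a pseudocount of 10 (-0.13 against -0.06). Against other genes at a mean of 6 to 10 it lay below in each of these settings (in CPM -0.12 against 0.13), except without the 8 cells (-0.03 against -0.10). On the deposited normalized values the median of all genes moved to -0.45. The nuclear sum kept its sign (-0.24 to -0.07). The mitochondrial to nuclear ratio within a cell is the same in every scaling and in the Ensembl table. Only thinning and left-out cells could move it. Its difference of line medians was then -0.08 to -0.02, and -0.12 to -0.03 with single cells left out. The line means of the log2 ratio differed the other way (-3.14 in the Htr3a line, -3.11 in the Sst line). The mitochondrial sum turned positive under 2 scalings (0.01 and 0.13). The correlation of the sums moved to 0.67 (TMMwsp), 0.70 (poscounts) and 0.13 (without the 8 cells), and ranged from 0.33 to 0.51 with single cells left out. No paired analysis was possible because the replicate numbers only follow the order of deposit and pair no cells. Depth was ample for the abundant members. For mt-Nd4l, mt-Nd3 and the sparse isoforms, a missing read does not show that the gene is silent.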
